A study of Arabidopsis thaliana with 2 samples.

Results

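The genes with the brightest signal in the sap of Arabidopsis leaf trichomes are described here by their rank on 1 array. A trichome is a hair of the leaf epidermis that consists of a single large, branched cell. The members are the 172 genes, of 13356 genes with a probe set that names exactly 1 gene (1.29%), selected on a trichome signal above 4 on the log2 scale. The probe sets of a gene were averaged and the array's own control probe sets were left out. The trichome values themselves chose the members, so their order and level are given as a description with no test, and no comparison with the other array entered the choice.

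The study hybridised 1 array with RNA from trichome sap and 1 with RNA from pavement cell sap, pavement cells being the ordinary ground cells of the epidermis. Both samples came from leaves of 5-week-old plants of the accession Columbia-0 grown at 20 and 18 °C with 16 h of light and 8 h of darkness, and no treatment or mutation is given for either. Sap was drawn with microcapillaries, and its RNA was amplified in 1 round before biotin labelling. Each cell type has 1 array, so no value below has a replicate error, and this number of arrays is what limits their precision. The labels do not say how many cells or plants were sampled. In such samples fewer cells drawn and less RNA per cell cannot be told apart.

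Trichomes form a barrier on the leaf and are known for thick, hardened walls, for stores of defence compounds and for enlarged nuclei that copy their DNA without dividing. Their walls hold cellulose, pectin and structural glycoproteins, among them the extensins, rod-like proteins rich in hydroxyproline that can be cross-linked to one another. Cell sap carries the RNA of the cytoplasm and can also carry that of plastids and mitochondria, which have small genomes of their own.

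The cell type could be checked against few markers. The list of developmental regulators of trichomes held 20 genes, of which 4 were measured. SIM, an inhibitor of cell division in developing trichomes, read 2.79 in trichome and 2.06 in pavement, which put it at trichome rank 1100. TRY, GIS and MYC1 (symbol in the table ATMYC1) read between 1.82 and 1.99 in trichome. All 4 lay below the threshold of 4, and only SIM was above 2.58, the highest reading of the 27 probe sets for Bacillus subtilis transcripts, which served as the background ceiling. The other markers given for these cells were bright: AT2G38870, a protease inhibitor, read 7.23 at rank 11, and AT4G08410, an extensin, read 7.90 at rank 5. Both were named as markers with these data known, so they do not check the label independently, and the developmental regulators give no firm check at this signal.

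None of the measured genes on the lists for other leaf cell types was a member. The lists had 5 mesophyll, 3 stomatal, 1 vascular and 1 epidermal gene measured, and 1.29% of all genes were members. The absence is therefore no check of purity. PSBW, a nuclear photosystem II gene outside those lists, was a member, at rank 14. Of the 26 photosynthesis genes listed for mesophyll, 5 were measured, with trichome signals from 3.17 to 3.97 and a median of 3.70. Their pavement median was 8.88. RCA, which encodes rubisco activase, read 3.97 and PSAE-1 of photosystem I 3.95, at ranks 179 and 187, just outside the members. All 5 were thus above the background ceiling on the trichome array, and their part in the values below was not tested. The 3 measured factors of the stomatal lineage, MUTE, FAMA (FMA in the table) and SPCH, read 2.96, 2.87 and 2.62 in trichome, all above the ceiling. In pavement their signals were 2.06, 1.99 and 2.003, under it. Their differences of 0.90, 0.87 and 0.61 stand beside 0.73 for SIM, and MUTE and FMA were brighter in trichome than SIM. The part of stomatal RNA in the trichome values was not tested. The sugar transporter gene SWEET11, the 1 measured member of the vascular list, read 2.08, and ACR4, the 1 measured member of the epidermal list, also read 2.08.

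Signals on this array covered a narrow bright end above a broad background. The median over all 13356 genes was 2.04, and 1634 genes exceeded the background ceiling. Among the 172 members 4 read above 8, 9 between 7 and 8, 16 between 6 and 7, 32 between 5 and 6, and 111 between 4 and 5. The brightest member exceeded the dimmest by 5.26 on the log2 scale. Just inside the threshold lay AT1G79150 (4.01), AT5G40450 (4.01) and AT5G21020 (4.002), and just outside it AT2G31090 (3.99), AT4G33970 (3.99) and STR18 (3.98), so the boundary does not mark a gap. Probe sets differ in how strongly they bind their target, so a rank orders signals and not amounts of transcript.

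**Figure D1:**
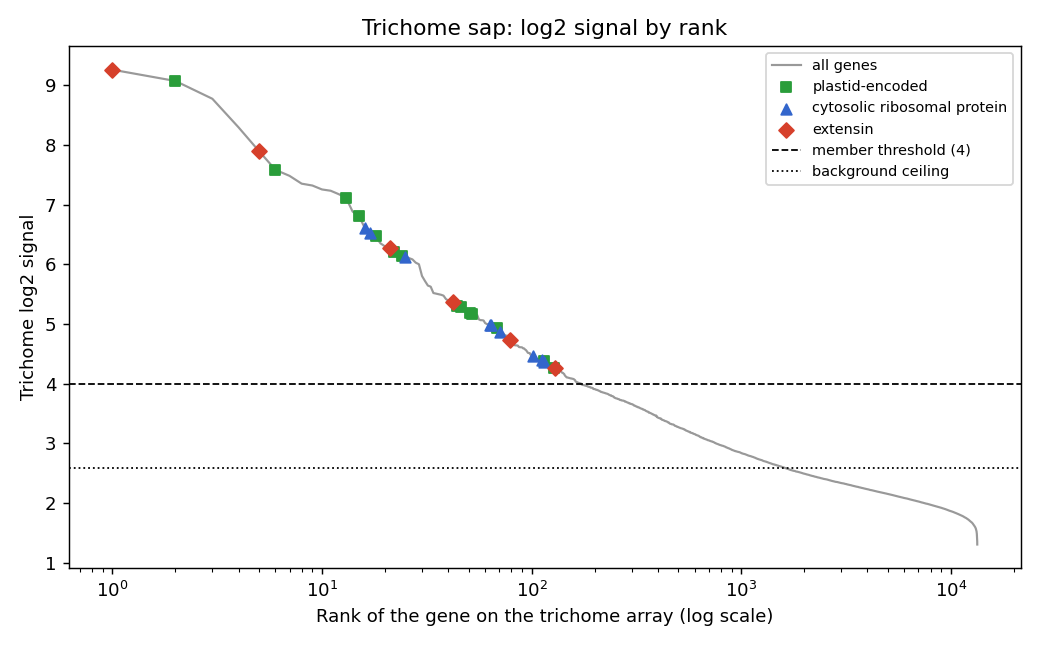
Trichome log2 signal (vertical axis) of all 13356 genes in order of rank (horizontal axis, log scale). Coloured points mark members that are plastid-encoded (14), cytosolic ribosomal proteins (9) or extensins (6); the dashed line is the threshold of 4 and the dotted line the background ceiling of 2.58. The 172 members form the steep left end, and all 3 marked groups reach into the 25 highest ranks.

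The 25 highest ranks were held by plastid genes (7), extensins (3), ribosomal protein genes (3), dehydrins (2) and genes of other or no assigned families. Among the rest were 1 gene each of small-molecule metabolism and defence, and 3 with no family assigned. AT1G23720, which encodes an extensin, ranked first with 9.26 in trichome and 7.85 in pavement. The plastid gene atpE, for the epsilon subunit of the chloroplast ATP synthase, ranked second with 9.07 in trichome and 13.2 in pavement. AT1G54410, the dehydrin HIRD11, a small hydrophilic protein of the kind that accumulates on drying, had rank 3 with 8.77 and 11.8. Of these 3 genes only AT1G23720 had the higher deposited signal in trichome. The next was AT3G31955, listed as a pseudogene, at 8.29 and 7.49, and the probe set behind it is not specific to 1 transcript by its type. The extensin gene AT4G08410 followed, and then rpoA, for a subunit of the plastid RNA polymerase, at 7.58 and 11.1.

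Ranks 7 to 12 held genes of varied function. AT5G39570 read 7.48 in trichome and 10.5 in pavement, and AT3G22240 read 7.25 and 10.5. AT2G12190, which encodes a cytochrome P450, an oxidising enzyme of specialised metabolism, read 7.35 and 3.76. AT5G62350, of the family of invertase and pectin methylesterase inhibitors, read 7.32 and 8.87. In this stretch AT2G12190 and AT2G38870, described below, had the higher signal in trichome, and the others in pavement. UBC28, a ubiquitin-conjugating enzyme that passes ubiquitin to proteins marked for breakdown, read 7.17 and 11.6. Further down the first 25 were PSBW, a nuclear-encoded small subunit of photosystem II (6.88 and 12.1), COR47, a cold-regulated dehydrin (6.35 and 10.4), NCL (AT1G53210), a sodium/calcium exchanger (6.30 and 10.3), and AT3G07230 (6.17 and 6.89). These 4 had the higher deposited signal in pavement, AT3G07230 by less than 2-fold.

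**Figure D2:**
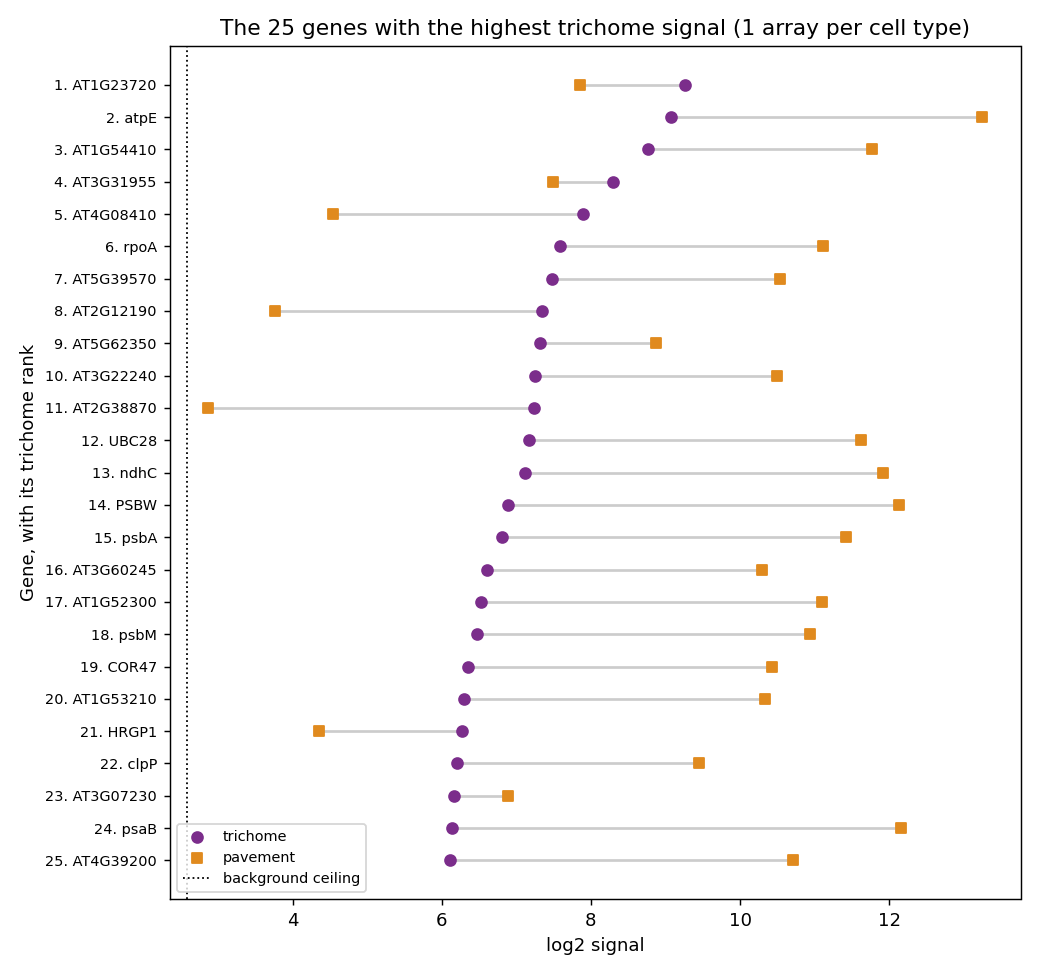
Log2 signal (horizontal axis) of the 25 genes with the highest trichome signal, by rank (vertical axis), as circles for the trichome array and squares for the pavement array, with 1 array per cell type and no error bars. Of the 25 genes, 5 lie at least 2-fold further right in trichome and 18 in pavement, where 0.726% and 5.08% of all genes were so called. AT2G38870, AT2G12190 and AT4G08410 have the widest gaps towards trichome.

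The order of genes was partly shared with pavement sap. Ranks within an array do not move when an array is shifted or rescaled as a whole, so they were compared first. Of the 10 brightest genes of each array 3 were the same (30.0%), of the 25 brightest 16 (64.0%), of the 50 brightest 25 and of the 172 brightest 67 (39.0%). The members' median rank on the pavement array was 263.5, with quartiles of 58.5 and 489.5. Across the 172 members the trichome and pavement signals had a Spearman correlation of 0.52, and of 0.46 across the 156 nuclear ones. This is a description across genes of 2 arrays, within a range cut off at 4 on the trichome side.

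Some genes ranked high on 1 array and far lower on the other. Of the 9 genes in the trichome top 25 that were not in the pavement top 25, AT2G38870 had the lowest pavement rank (1453), followed by AT2G12190 (661), HRGP1 (446) and AT4G08410 (393). The other 5 had pavement ranks from 39 for clpP to 137 for AT3G07230. In the other direction, 24 of the 25 brightest pavement genes were members. The exception was EXLA1, an expansin-like gene of the cell wall, at pavement rank 22 with 10.4 and at trichome rank 7285 with 2.01. AT2G25510, the second gene on the pavement array with 13.1, ranked 77 in trichome with 4.80, and AT5G40450 ranked 21 in pavement with 10.4 and 171 in trichome with 4.01.

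Most members had signal on the pavement array as well. Of the 172, 133 were above 4 there (77.3%), against 4.16% of all genes, 30 lay between the background ceiling and 4, and 9 were at or under the ceiling. Read from the other side, 24.0% of the 555 pavement genes above 4 were members. The median of the members was 4.63 in trichome and 5.42 in pavement.

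The deposited signals were more often higher in pavement than in trichome. By a difference of at least 1 on the log2 scale (2-fold), 82 members (47.7%) were higher in pavement, where 5.08% of all genes were so called, and 30 (17.4%) were higher in trichome, where 0.726% of all genes were. Of the 8730 plant probe sets with no listed gene, 8.13% and 0.802% were so called. The other 60 members differed by less than 2-fold. The median difference, trichome minus pavement, was -0.85 over the members, with quartiles of -3.37 and 0.20, and 0.02 over all genes. The trichome value chose the members and also enters the difference, and genes at background on both arrays cannot pass, so nothing is read from these shares against the background. All 18 probe sets for the hybridisation controls, transcripts added in the usual procedure in amounts not given in the sources used here and each read by several probe sets, had the lower signal in trichome, with a median difference of -3.15 (log2). Centred on these controls the counts were 114 members higher in trichome and 26 higher in pavement. After a lowess correction for mean level they were 120 and 4. Shares over all genes under these scalings are not given here. Of the 8730 plant probe sets with no listed gene, 96.3% were higher in trichome and 1.15% in pavement once centred on the controls. Nothing is therefore read from these counts. The direction of a single member holds only where it is the same under these scalings. Centring on the controls raises every difference, so it cannot reverse a higher deposited signal in trichome.

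As deposited, the median difference was further from 0 at higher trichome levels. It was -0.70 over the 111 members between 4 and 5, -1.16 over the 32 between 5 and 6, and -3.37 over the 29 above 6. Centred on the hybridisation controls the medians of these bands were 2.45, 1.99 and -0.22, and after lowess 1.35, 1.97 and 2.21, so the direction depended on the scaling in each band. Of the 29 genes above 6, as deposited, 21 were at least 2-fold higher in pavement and 6 in trichome, where 5.08% and 0.726% of all genes were so called. The trichome signal set this band, and its counts under the other scalings are not given, so nothing is read from them.

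**Figure D3:**
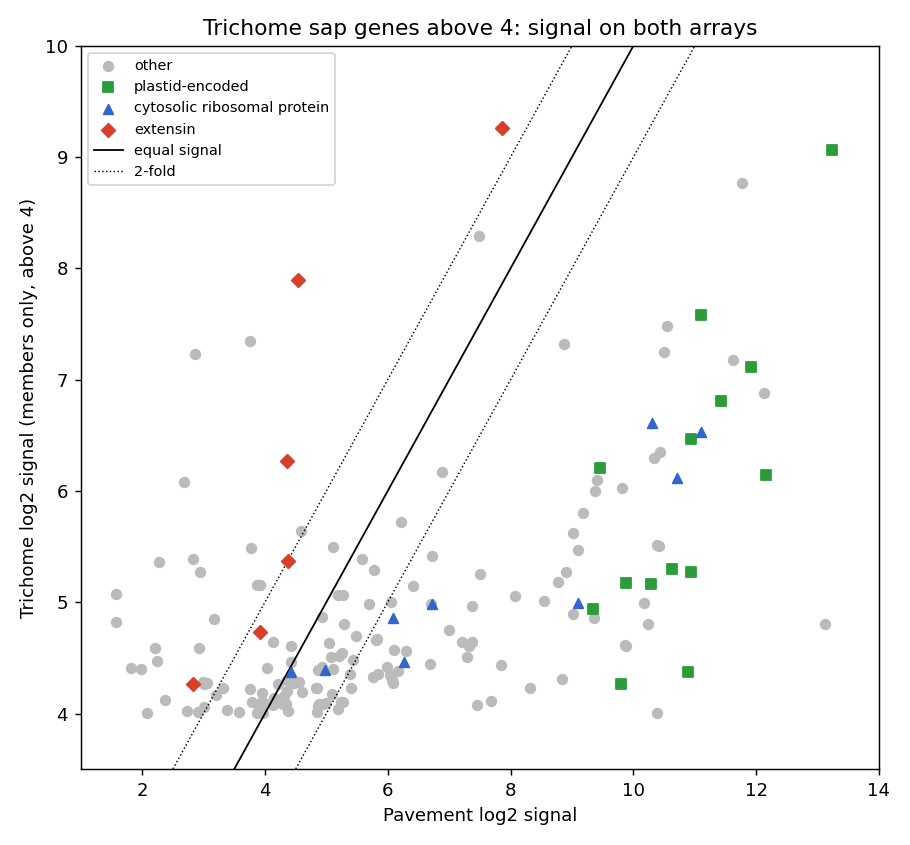
Trichome log2 signal (vertical axis) against pavement log2 signal (horizontal axis) of the 172 members, with the line of equal signal (solid) and the 2-fold limits (dotted). Squares are plastid-encoded genes, triangles cytosolic ribosomal proteins, diamonds extensins and grey circles the other members. The 14 plastid genes all lie to the right, with pavement signals of 9.34 or more, and the 6 extensins lie on the trichome side of the solid line.

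Plastid genes made up a larger share of the members than of the named genes. The plastid genome supplied 14 of the 172 members (8.14%), against 69 of the 13356 named genes (0.517%), and 7 of the 25 highest ranks. In pavement sap 36 plastid genes were above 4, which was 6.49% of the genes at that level, and 10 were in its top 25. By compartment, 20.3% of the named plastid genes and 1.18% of the named nuclear genes were members, and on the pavement array 52.2% and 3.87% were above 4. Plastid genes were thus a larger share of the bright genes than of all named genes on both arrays, with 1 array each and no test. In trichome it was 18.0% among the 61 genes above 5 and 2.77% among the 757 above 3.

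The bright plastid genes served photosynthesis, gene expression and protein processing. After atpE and rpoA came ndhC, of the plastid NADH dehydrogenase-like complex (7.12 in trichome and 11.9 in pavement), psbA, for the D1 core protein of photosystem II (6.81 and 11.4), psbM, for a small photosystem II subunit (6.47 and 10.9), and clpP, for a subunit of the plastid protease (6.21 and 9.45). Of photosystem I, psaB read 6.14 in trichome against 12.2 in pavement, and psaJ 5.28 against 10.9. The gene ccsA, needed to attach heme to c-type cytochromes, read 5.30 and 10.6. Each of these 7 had a pavement signal above its trichome signal by at least 9.48-fold. The ribosomal protein gene rps4 read 5.18 in trichome against 9.89 in pavement, and rps19 5.16 against 10.3. The photosystem II genes psbI and psbZ read 4.94 and 4.37 in trichome, and petA, for cytochrome f of the cytochrome b6f complex, read 4.27.

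As a group the 14 plastid members had a median difference of -4.76 on the log2 scale, trichome minus pavement, with differences from -6.53 for psbZ to -3.25 for clpP. All 14 were lower by at least 2-fold as deposited, where 5.08% of all genes were so called. Centred on the hybridisation controls the median was -1.61 and 12 of 14 were lower by at least 2-fold. After the lowess correction the median was 0.26 and 9 of the 14 differences were positive and 5 negative, with 6 genes past 2-fold towards trichome and 2 towards pavement. The size of the gap therefore depends on the scaling, and its direction is not settled by that correction.

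Plastid genes transcribed together did not share a signal level. The gene atpB, which precedes atpE in a shared transcript, read 2.52 in trichome and 7.56 in pavement, against 9.07 and 13.2 for atpE. The gene psaA, which precedes psaB, read 1.94 and 1.88, at background on both arrays. In the unit of ndhC, ndhK and ndhJ the trichome signals were 7.12, 3.67 and 2.36. Within each of these units the bright member was thus also the brightest on the pavement array. The psbD and psbC genes read 2.41 and 2.39 in trichome, where psbZ, downstream of them, read 4.37. The gene rbcL, for the large subunit of rubisco, an abundant leaf protein, read 2.76 in trichome and 4.07 in pavement. Of the 69 plastid genes 55 were not members, 38 were at or under the background ceiling in trichome, and 22 non-members were above 4 in pavement. Probe sets lie at different distances from transcript ends and bind with different strength, so signals of different genes are not compared as amounts.

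**Figure D4:**
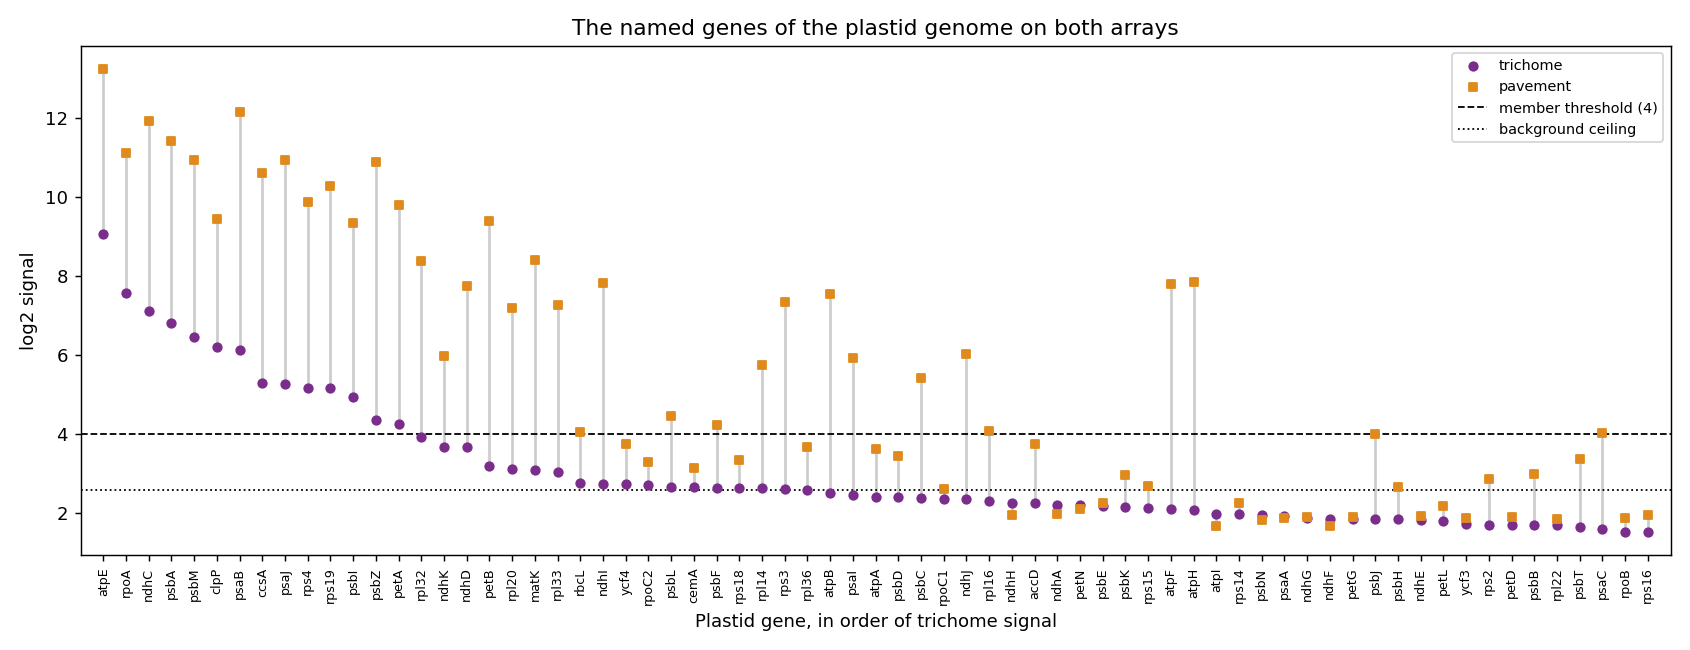
Log2 signal (vertical axis) of the 69 named plastid genes, in order of trichome signal (horizontal axis), with circles for the trichome array and squares for the pavement array. The 14 genes above the dashed line at 4 are members; most genes towards the right lie near or below the dotted background ceiling of 2.58 in trichome while several of them are bright in pavement.

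Mitochondrial genes were absent from the members. Over all genes 1.29% were members and 4.16% were above 4 in pavement, so nothing is read from an absence among 16 genes. Of the 16 named genes of the mitochondrial genome none was above 4 in trichome and 2 were above 4 in pavement. The brightest were nad4, of respiratory complex I, at 3.83 in trichome and 7.41 in pavement, and cox1, of cytochrome c oxidase, at 2.74 and 5.52. Among nuclear genes for mitochondrial proteins, AT4G37830, a subunit of cytochrome c oxidase, read 4.98 in trichome and 5.70 in pavement. AT5G47890, a subunit of complex I, read 4.34 and 6.03, and MAB1, of the pyruvate dehydrogenase complex, 4.04 and 5.20. All 3 had the higher deposited signal in pavement, and the higher signal in trichome once centred on the hybridisation controls or corrected by lowess.

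All 6 extensins found among the members had the higher signal in trichome. They read from 4.27 to 9.26 in trichome, with a median of 5.82, and from 2.83 to 7.85 in pavement, with a median of 4.37. All 6 differences were positive, from 0.81 to 3.36, and 4 of 6 reached 2-fold, under the deposited values and with background readings raised to the ceiling. As deposited, 0.726% of all genes were at least 2-fold higher in trichome. The direction was the same for all 6 when centred on the hybridisation controls, on genes above background on both arrays, or after lowess, and each then passed 2-fold. The centrings subtract -3.15 (controls) and -0.37 (genes above background) from every difference. Lowess raised the median difference of the extensins from 1.42 to 3.86. These scalings moved the extensins towards trichome and could not reverse them, so the agreement adds no support. The extensin values are a description of genes chosen for a high trichome signal, which favours a positive difference.

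AT4G08410 had the widest difference of the extensins, with 7.90 in trichome and 4.54 in pavement (10.2-fold). A second probe set that names both AT4G08410 and AT4G08400, and was not used for the ranking, read 4.22 and 1.79, with pavement at background. HRGP1 (AT3G54590), a hydroxyproline-rich glycoprotein, read 6.27 and 4.35 (3.77-fold). Both probe sets that name AT4G08410 were thus above the threshold in trichome. AT5G59170 read 5.37 and 4.38, AT5G06630 4.73 and 3.92, and AT5G19810 4.27 and 2.83. The probe sets of AT1G23720, AT4G08410, HRGP1 and AT5G06630 belong to a type whose probes can also match similar sequences, and extensins resemble each other in sequence, so their signals may not be separate. Without probe sets of shared types AT5G59170 and AT5G19810 were left, 1.21% of the members.

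The 2 members assigned to defence, a minimum count, stood far from their pavement signals. AT2G38870, of the potato inhibitor I family of proteins that block serine proteases, read 7.23 in trichome and 2.87 in pavement (20.6-fold), the widest deposited difference towards trichome of any member. AT1G63730, a disease resistance protein of the TIR-NBS-LRR kind, read 5.36 and 2.27, at least 6.85-fold higher in trichome against the background ceiling. Both were higher in trichome under the 5 scalings run. The centrings and lowess raised both differences, and raising background readings to the ceiling could not reverse them. The agreement between scalings thus adds no support. Both genes were chosen for a high trichome signal, which favours a positive difference. In the list of 12 known defence markers 3 had a named probe set, and PDF1.1 (LCR67 in the table), PDF1.2A (PDF1.2) and THI2.1, which encode defensins and a thionin, read 1.91, 1.47 and 2.54, at background.

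Cell surface and lipid genes were mixed. AT3G58550, a lipid transfer protein of the kind that carries lipids to the cuticle, read 5.39 in trichome and 2.83 in pavement (5.88-fold). LCB2, a subunit of serine palmitoyltransferase, the first enzyme of sphingolipid synthesis, read 5.15 and 3.93 (2.34-fold). The GDSL-type lipase genes AT3G16370, AT1G29670 and AT1G75900 had trichome signals of 5.26, 5.01 and 4.07 and pavement signals of 7.51, 8.54 and 4.87. The lipases therefore had the higher deposited signal in pavement and the other pair in trichome; centred on the hybridisation controls 4 of the 5, and under the lowess correction all 5, had the higher signal in trichome. AT1G80170, of the pectin lyase-like family, read 4.40 in trichome and 1.98 in pavement, at least 3.53-fold.

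Cytosolic ribosomal proteins made up 9 of the members by the families assigned here. Their trichome signals ran from 4.37 to 6.61 with a median of 4.99, and their pavement signals from 4.43 to 11.1 with a median of 6.73. AT3G60245, for protein L37a of the large subunit, read 6.61 and 10.3, AT1G52300, for L37, 6.53 and 11.1, and AT4G39200, for S25 of the small subunit, 6.12 and 10.7. These 3 were in the trichome top 25. AT5G20290, for protein S8, read 4.99 and 9.10, while AT2G19730, for L28, read 4.37 and 4.43. The deposited difference was negative for all 9, with a median of -1.80, and past 2-fold for 7 of them, against 5.08% of all genes. It was -0.06 for AT2G19730 and -4.60 for AT4G39200, so ribosomal genes did not sit at a common offset. Centred on the hybridisation controls the median was 1.35, and after lowess it was 1.44, so the direction turned with the scaling. Of the translation factors, AT5G54940, of the SUI1 family of initiation factors, read 6.03 and 9.82, and ALATS, which charges alanine onto its tRNA, 5.72 and 6.21.

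Genes of protein turnover included 3 of the ATG8 family, ubiquitin-like proteins that coat the membranes of autophagy. ATG8F read 5.27 in trichome and 8.90 in pavement, APG8H (synonym ATG8I) 4.31 and 6.07, and ATG8G 4.01 and 3.58. GAMMA-VPE, a vacuolar processing enzyme that matures other vacuolar proteins, read 4.23 and 8.31. The papain-like protease gene AT4G16190 read 5.18 and 8.77, and the aspartyl protease gene AT3G02740 4.75 and 6.99. The F-box gene AT2G36090 read 4.41 and 1.83, at least 3.54-fold higher in trichome. Of the 8 genes in this group 6 were at least 2-fold higher in pavement as deposited and 1 in trichome, where 5.08% and 0.726% of all genes were so called. Centred on the controls it was 1 in pavement and 3 in trichome, and after lowess 0 and 3. Shares over all genes under these scalings are not given, so nothing is read from the counts.

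Dehydration and metabolism genes completed the named groups. Of the 9 listed genes of cold and stress 4 were measured, and COR47 alone was a member. COR15A, a cold-regulated protein of the chloroplast, read 2.58 in trichome and 7.27 in pavement. TIL, a temperature-induced lipocalin of membranes, read 4.70 and 5.48. In small-molecule metabolism THIC, for thiamine synthesis, read 4.99 and 6.71, GME, for ascorbate and wall sugar synthesis, 4.57 and 6.11, and SAMDC, for polyamine synthesis, 4.51 and 7.30. ALDH3F1, an aldehyde dehydrogenase, read 5.06 and 5.27, and GLX2-5, of the glyoxalase system, 4.87 and 4.93. The deposited signals of ALDH3F1 and GLX2-5 thus differed by less than 2-fold, while the differences centred on the hybridisation controls were 2.94 and 3.09 towards trichome. TET8, a tetraspanin of membranes and secreted vesicles, read 4.61 and 9.88, and SEC5B, of the exocyst that directs secretion, 5.50 and 5.11. MAC3B, of a complex associated with splicing, read 4.90 and 9.01, and HTB4, a histone H2B, 4.51 and 5.07.

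The lists for other pathways of the leaf hair had few measured genes and no member, where 1.29% of all genes were members. In the sulfur list SIR, the sulfite reductase, and MT1C, a metallothionein, read 2.29 and 2.17 in trichome, at background. In the flavonoid list DFR and UGT78D2 read 2.71 and 2.90, above the ceiling, and UGT78D1 1.78. Of the 11 listed reference genes 5 were measured, and GAPC2, an enzyme of glycolysis, was the brightest at 3.32 in trichome and 4.89 in pavement.

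A subset of 23 members had pavement ranks beyond 1000. After AT2G38870 the highest in trichome were AT1G06320 (6.08 in trichome and 2.69 in pavement), AT3G58550, AT1G63730 and AT1G76940 (5.27 and 2.94). AT5G43150 read 5.08 in trichome and 1.58, at background, in pavement, at least 5.64-fold higher in trichome. The pseudogene AT3G33066 read 4.82 and 1.57, from a probe set of a shared type. The subset was chosen on its signal in trichome and its rank in pavement, so low pavement signals here restate the choice. They reached 3.21 for AT3G50350, which read 4.17 in trichome (1.95-fold). Of all members, those furthest towards pavement were AT2G25510, with a difference of -8.33, psbZ, AT5G40450 (-6.37), psaB (-6.01) and psaJ (-5.66). AT2G25510, psbZ, AT5G40450 and psaJ were lower in trichome under the 5 scalings run, psaJ by only -0.26 after lowess. For psaB the difference after lowess was 0.40, towards trichome.

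The members were also described by features that the rule did not use. The 156 nuclear members had a median gene length of 1972.5 bases in the RefSeq table, with quartiles of 1312.5 and 2790.5, and all 13217 named nuclear genes a median of 2111, with quartiles of 1407 and 3049. Lengths thus overlapped widely. Probe sets of the type that shares probes with similar sequences (x_at) gave 5 members (2.91%) and 109 of all genes (0.816%), and 4 of those 5 members were extensins. Probe sets shared by identical stretches (s_at) gave 2 members, AT3G31955 and AT3G33066, both pseudogenes. The remaining pseudogene, AT3G43320, read 4.23 in trichome and 3.32 in pavement.

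Agreement between probe sets could be examined for 2 members. For AT1G21580 the trichome readings were 6.15 and 2.88, and the pavement readings 8.33 and 2.09, so the differences were -2.18 and 0.79. For AT1G79150 they read 5.82 and 2.19 in trichome, with differences of 3.66 and 0.18. In both genes 1 probe set was above 4 and the other was not, so their rank rests on a single probe set. For the other 170 members there is 1 probe set each and no such check.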

How the data were processed

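RNA from trichome and pavement cell sap was measured on 1 Affymetrix array each. The authors deposited log2 signals for each probe set, computed with RMA according to the submitters' processing notes. Neither its version nor the set of arrays it was run on is given in the sources used here, and no label states the logarithm's base, which was inferred from the values. Of 22810 probe sets, 13513 named 1 gene and 503 several in the platform annotation, and 8730 plant probe sets had no entry. Symbols were taken from RefSeq (assembly TAIR10.1) by gene identifier, which matched 13286 of 13356 genes and 170 of 172 members. Compartments come from that table, except that 16 mitochondrial genes were taken from their symbols.

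Probe sets of a gene were averaged, genes were ranked, and those above 4 were kept. The members and lists were chosen with earlier results of these data known. Families were assigned after the values were seen: 40 members from the tables' symbols, synonyms or genome and 30, listed by locus identifier, from general knowledge; 102 were not assigned, so family counts are minimum counts. The named genes are the 25 highest ranks, up to 4 per family or list (more where a family is listed in full), all plastid members, 3 genes on each side of the threshold, the 5 widest differences each way, the markers, members with several probe sets, and low list members. Genes named beyond this rule were chosen after their values were seen. No p-value was computed, since each group has 1 array. An "at least" fold was taken against the background ceiling of 2.58. Other thresholds, probe set choices and scalings (lowess fraction 0.3) were tried. Ranking and counting were run on simulated data in which the raised genes lay clear of the threshold. That run checks the code and not the choice of members near the threshold. Python 3.11.15, pandas 2.3.3, SciPy 1.17.1 and statsmodels 0.14.6 were used.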

Additional observations from a re-analysis of the deposited data

Results flagged for a closer look

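Signal outside the ranked genes drew attention on the trichome array. Of 8730 plant probe sets with no listed gene, 186 were above 4 (2.13%), 39 of them above 6. The brightest read 9.96 in trichome and 13.3 in pavement, above the highest named gene. The second read 8.90 in trichome and 3.17 in pavement, and the third 8.43 and 9.78. As deposited, 23 of the 186 were at least 2-fold higher in trichome and 106 in pavement, where 0.802% and 8.13% of the 8730 were so called. Centred on the hybridisation controls, a setting added after seeing the data, the counts were 110 and 34 of the 186. Under that centring 96.3% and 1.15% of the 8730 were so called. The direction depends on the scaling and nothing is read from it. A further 16 probe sets that name several genes were above 4. The ranks of named genes therefore leave out more probe sets above 4 than they hold.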

How the results depend on the processing

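No paired analysis was possible because each group has 1 array and the groups share only the replicate number 1; for the same reason no array could be left out. Of the 62 values recomputed under alternatives, 36 were labelled the same, 21 moved and 5 changed sign. The 36 were not all close to the reported values. Among them, the extensin share was 6.56% at a threshold of 5 against 3.49%. The members higher in pavement were 58 at 4-fold against 82 at 2-fold. The sign changes were in the median difference by band of trichome level, an alternative chosen after seeing the data: centred on the hybridisation controls it was 2.45 between 4 and 5 and 1.99 between 5 and 6, and after lowess 1.35, 1.97 and, above 6, 2.21; the cause was not tested. A threshold of 3 gave 757 genes, of which 2.77% were plastid-encoded, with 77 higher in trichome and 243 higher in pavement by 2-fold. A threshold of 5 gave 61 genes, 18.0% plastid-encoded and 9.84% matched by a function keyword, with 14 and 38. Centred on the hybridisation controls 114 members were higher in trichome and 26 in pavement, and with lowess 120 and 4. Shares over all genes are not given beside these counts, so nothing is read from them. At 4-fold 13 were higher in trichome and 58 in pavement, also without a share over all genes. Without probe sets of shared types 1.21% of the members were extensins. Hand-assigned families were not recomputed at a threshold of 3 or with probe sets naming several genes, where added genes have no assignment. Function keywords fixed for symbols and synonyms matched 7 members (4.07%), 1 of them wrongly (SAMDC, through the letters of thionin in its synonym), and 2.36% of all genes, so they were not used. The values carry no detection call, so a signal near 2.58 cannot be told from background.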

Other observations

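Probe sets that name several genes held further genes of the groups described above, chosen after their values were seen. KIN2;KIN1, for small cold- and drought-induced proteins, read 5.995 in trichome and 10.02 in pavement. The plastid ribosomal protein genes rps7 and rpl2, each present as a pair of copies, had trichome signals of 5.73 and 4.96 and pavement signals of 11.6 and 9.49. The ubiquitin-conjugating enzyme genes UBC34;UBC33 read 4.69 in trichome and 1.53, at background, in pavement. Of the 4 probe sets only this last had the higher deposited signal in trichome.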
